A study of Mus musculus with 10 samples.

Results

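Chromatin accessibility at 9 genes that encode the receptors for IL-2, IL-7, IL-4, IL-9, IL-25 and TSLP (*Il7r*, *Il2ra*, *Il2rb*, *Il2rg*, *Il4ra*, *Il9r*, *Crlf2*, *Il17rb* and *Il17ra*) was compared between group 2 innate lymphoid cells (ILC2s) of 5 mouse tissues. A region was assigned to these genes when its centre lay inside one of them or when its nearest transcription start site (TSS) in RefSeq belonged to one, which gave 55 of the 50039 regions of the count table. *Il7r* and *Il2ra* had 14 regions each, *Il17ra* had 9, *Il2rb* had 5, *Il4ra* and *Il9r* had 4 each, *Crlf2* and *Il17rb* had 2 each and *Il2rg* had 1. Of the 55 regions, 34 were centred inside their gene and 51 had its TSS as the nearest. No region belonged to more than 1 of the 9 genes.

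Accessibility was measured by ATAC-seq, in which the Tn5 transposase inserts sequencing adapters into open chromatin, in ILC2s from lung, pancreas, small intestine (SI), large intestine (LI) and bone marrow (BM). Each tissue had 2 libraries, described as biological duplicates, and each library held 50000 cells sorted from pooled C57BL/6 males 6 weeks of age, 16 mice for BM, lung and pancreas and 10 mice for LI and SI. The mice were wild type. BM ILC2s were lineage-negative ST2+CD25+ cells, ILC2s of LI, lung and pancreas were also CD45+CD127+, and SI ILC2s were lineage-negative CD127+CD45+KLRG1+ cells with low or intermediate *Thy1*. CD127 is the product of *Il7r* and CD25 that of *Il2ra*, so CD127 was part of every gate except that of BM, and CD25 was part of every gate except that of SI. BM cells were sorted on a BD FACSAria III and the others on a MoFlo Astrios. Gate and sorter therefore change with the tissue and cannot be told apart from it at any region, and because the cells were measured in bulk, fewer cells with an open region and less opening per cell cannot be told apart either.

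Receptors for IL-2, IL-7, IL-4 and IL-9 share the common gamma chain encoded by *Il2rg*, which pairs with a chain particular to each cytokine and signals through JAK1, JAK3 and STAT proteins. The IL-7 receptor chain also pairs with the product of *Crlf2* to form the receptor for TSLP, an epithelial cytokine, whereas IL-25, another epithelial cytokine, binds a receptor of IL-17RB and IL-17RA. ILC2s depend on IL-7 for development and survival, and IL-25 and TSLP are among the signals that activate them.

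Total counts per library lay between 10282987 in pancreas 2 and 32797872 in lung 2. A single region held 7.75% of the counts of LI 1 and 9% of those of pancreas 2. Levels are counts per 1000000 counts of the TMM-scaled library (CPM), given for replicate 1 and then replicate 2 of each tissue. Of 8 genes that mark ILC2s, 7 had a region at the promoter, with a summed level of 199 to 337 CPM in each library, and *Thy1* had none. Among these, *Il1rl1*, which encodes ST2, had 4.53 and 3.55 CPM in SI against 10.4 to 41.9 CPM in the other libraries, and *Klrg1* had 11.2 and 11.5 CPM in BM against 35.2 to 75.4 CPM. Marker lists of B cells, of mast cells and basophils, of ILC1 and NK cells and of endothelial and stromal cells had no promoter region, and the summed promoter levels were 4.7 to 10 CPM for 2 of 5 T cell markers, 2.5 to 10.5 for 1 of 3 ILC3 markers, 0.386 to 9.29 for 1 of 5 myeloid markers, 2.89 to 9.49 for 1 of 3 epithelial markers and 56.8 to 81.2 for 2 of 3 progenitor markers. The erythroid list set BM apart, as the promoter regions of *Hba-a1* and *Hbb-bs*, 2 of its 3 genes, summed to 14 and 24.7 CPM in the lower and higher BM library against 2.19 to 4.77 CPM elsewhere, with *Gata1* lacking a region.

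Windows of 200 bases around the centres of 6 regions that passed the joint test described below were taken from mm10 and on the plus strand. Capitals mark matches, on either strand, to a consensus of ILC2-related factors, namely AGATAA or TGATAA for GATA factors, TGTGGT for RUNX, TTCNNNGAA for STAT, AGGTCA for ROR, TGANTCA for AP-1, GGAAGT for ETS and GCGTG for the AHR core. The first pair are the 2 regions of *Il17rb*, which were highest in the intestine. The next pair are *Il2ra* regions that stood apart in SI and in BM, and the last pair are *Il7r* regions with their highest means in LI.
Il17rb +9.6 kb, chr14:29999190-29999389: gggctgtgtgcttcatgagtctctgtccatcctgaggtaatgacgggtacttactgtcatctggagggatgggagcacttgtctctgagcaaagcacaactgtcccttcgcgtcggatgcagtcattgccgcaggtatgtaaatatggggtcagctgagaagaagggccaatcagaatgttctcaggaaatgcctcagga
Il17rb +11.3 kb, chr14:29997457-29997656: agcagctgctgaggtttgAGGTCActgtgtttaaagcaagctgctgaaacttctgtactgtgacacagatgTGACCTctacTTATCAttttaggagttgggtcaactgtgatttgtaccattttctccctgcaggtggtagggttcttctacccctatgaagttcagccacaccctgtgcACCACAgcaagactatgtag
Il2ra −7.5 kb, chr2:11635192-11635391: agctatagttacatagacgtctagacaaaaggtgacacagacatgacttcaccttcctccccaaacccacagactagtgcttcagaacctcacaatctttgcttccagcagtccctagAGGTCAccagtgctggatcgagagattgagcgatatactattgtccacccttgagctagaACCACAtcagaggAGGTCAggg
Il2ra +2.7 kb, chr2:11645360-11645559: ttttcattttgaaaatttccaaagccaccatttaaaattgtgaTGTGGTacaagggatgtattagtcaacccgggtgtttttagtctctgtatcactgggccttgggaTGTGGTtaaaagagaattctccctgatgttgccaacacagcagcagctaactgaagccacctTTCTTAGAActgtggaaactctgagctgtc
Il7r −24.6 kb, chr15:9554404-9554603: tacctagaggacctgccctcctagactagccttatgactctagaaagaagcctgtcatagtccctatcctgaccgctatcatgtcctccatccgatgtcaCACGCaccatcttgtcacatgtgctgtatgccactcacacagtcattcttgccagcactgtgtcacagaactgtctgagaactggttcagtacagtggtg
Il7r −26.3 kb, chr15:9556030-9556229: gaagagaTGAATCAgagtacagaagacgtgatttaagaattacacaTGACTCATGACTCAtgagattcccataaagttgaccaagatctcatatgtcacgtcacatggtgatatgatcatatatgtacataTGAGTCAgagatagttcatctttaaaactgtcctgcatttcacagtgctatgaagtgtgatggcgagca
Each window is named by the distance of its region from the curated TSS. The *Il17rb* window at +9.6 kb held no match to the 7 consensus sequences. The window at +11.3 kb held 2 ROR matches, 1 GATA and 1 RUNX match. The *Il2ra* window at −7.5 kb held 2 ROR matches and 1 RUNX match, and that at +2.7 kb held 2 RUNX matches and 1 STAT match. The *Il7r* window at −26.3 kb held 4 AP-1 matches, of which 2 lay directly side by side, and that at −24.6 kb held 1 match to the AHR core. Over the 55 regions, a RUNX match was found in 17 windows (30.9%, against 22.7% of all 50039 windows), GATA in 15 (27.3% against 19.4%), ROR and AP-1 in 11 each (20% against 12.6% and 14.9%), ETS in 10 (18.2% against 20.3%), the AHR core in 8 (14.5% against 22.2%) and STAT in 7 (12.7% against 5.2%). A match is a description of these letters and not a bound site.

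Across the 5 tissues, 30 of the 55 regions differed by the joint edgeR quasi-likelihood test at a Benjamini-Hochberg adjusted p under 0.05, beside 44.2% of all 49981 regions tested. These were 8 regions of *Il7r*, 8 of *Il2ra*, 6 of *Il17ra*, 3 of *Il2rb*, 2 of *Il4ra*, both of *Il17rb* and 1 of *Il9r*. The single *Il2rg* region and both *Crlf2* regions did not pass. By class, 3 of 9 promoter regions, 5 of 9 exonic, 13 of 23 intronic and 9 of 14 intergenic regions passed, beside 31.8%, 34.5%, 51% and 48.3% of all regions of each class. Among the 30, the highest mean of log2 CPM was in the pancreas at 10, in lung and SI at 6 each, in BM at 5 and in LI at 3. The lowest was in SI at 15, in BM at 13 and in the pancreas at 2. Over all regions that differed, by the same measure, BM was highest at 25.4% and the pancreas at 19.6%, and SI was lowest at 22.6% and BM at 34%. Means of CPM can give another order where tissues lie close, as at *Il7r* −51.3 kb with 81.2 in lung and 80.9 in BM. Of the 30 calls, 14 held under each of 18 alternative settings, libraries left out included. They were *Il7r* −69.7, −26.3 and −24.6 kb, *Il2ra* −7.5, +17.0 and +20.5 kb, *Il2rb* −15.6 and −0.1 kb, *Il4ra* +2.4 and +23.7 kb, *Il17rb* +9.6 and +11.3 kb, and *Il17ra* −34.9 and −34.1 kb.

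**Figure D1:**
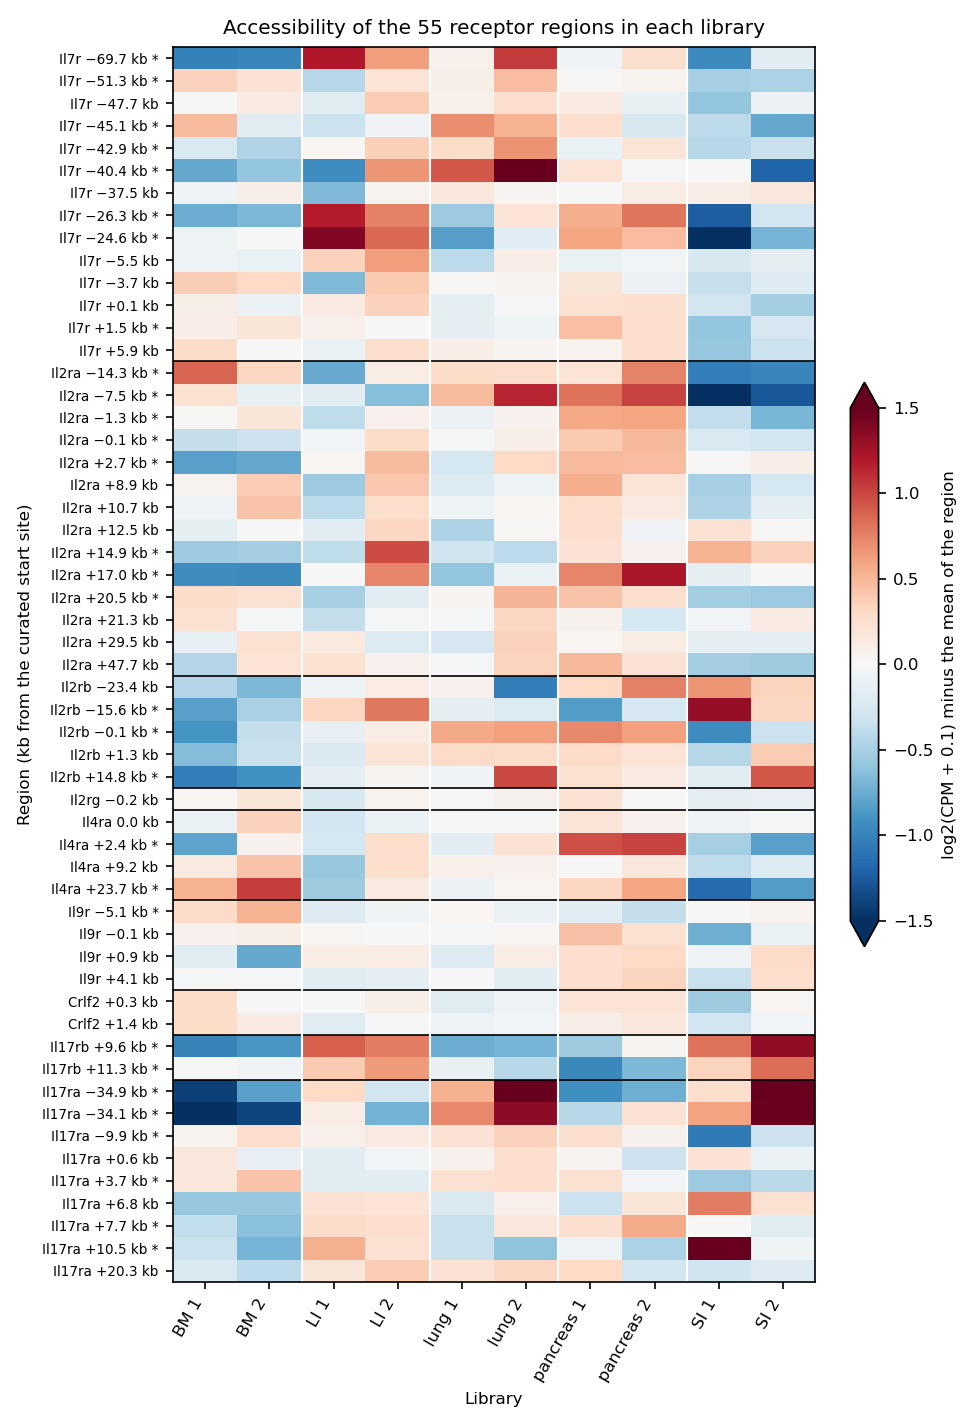
Accessibility of the 55 regions (rows, by gene and by distance from the curated TSS in kb, upstream negative) in the 10 libraries (columns). Colour gives log2(CPM + 0.1) minus the mean of the region over the libraries and is cut at 1.5 in both directions, and * marks the 30 regions that differed among the tissues. The SI libraries are low over most of *Il7r* and at the upstream regions of *Il2ra*, and both *Il17rb* rows are high in LI and SI.

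The gamma chain gene *Il2rg*, whose product serves in receptors for IL-2, IL-7, IL-4 and IL-9, had 1 region, which did not pass. This region at chrX:101268131-101268765, centred 0.2 kb upstream of the TSS, had 37.9 and 42.1 CPM in BM, 31.5 and 38.6 in LI, 36.6 and 38.7 in the lung, 43 and 36.9 in the pancreas, and 33.5 and 34.1 in SI. SI lay below BM, lung and pancreas and overlapped with LI, the other tissues overlapped with each other, the highest mean was 1.18-fold the lowest and the joint test gave an adjusted p of 0.676 (edgeR).

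*Il7r*, which encodes the chain shared by the IL-7 and TSLP receptors, differed among tissues mainly at regions far upstream, where neighbouring regions had their maxima in different tissues. The pair at −26.3 kb (chr15:9555862-9556397) and −24.6 kb (chr15:9554245-9554762), both intergenic, had its highest means in LI. At −26.3 kb the libraries had 6.61 and 6.95 CPM in BM, 25.4 and 18.9 in LI, 7.61 and 12.9 in the lung, 16.3 and 19.5 in the pancreas, and 4.67 and 9.09 in SI. LI and pancreas overlapped with each other and lay above all libraries of the other tissues. LI exceeded BM by 1.70 ± 0.32 on the log2 scale (± SE, adjusted p = 0.00103, edgeR), lung by 1.10 ± 0.31 (adjusted p = 0.031) and SI by 1.67 ± 0.32 (adjusted p = 0.00391). At −24.6 kb the values were 4.5 and 4.74 CPM in BM, 12.6 and 8.69 in LI, 2.63 and 4.2 in the lung, 7.18 and 6.58 in the pancreas, and 1.59 and 2.89 in SI. Both LI libraries lay above the other 8, and LI exceeded SI by 2.22 ± 0.36 (adjusted p = 0.00112, edgeR), a 4.64-fold difference. LI against the pancreas did not pass at −26.3 kb (0.30 ± 0.31, adjusted p = 0.753) or at −24.6 kb (0.61 ± 0.34, adjusted p = 0.438).

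Farther upstream, 3 intergenic *Il7r* regions between −45.1 and −40.4 kb had their highest mean in lung. The region at −40.4 kb (chr15:9569990-9570490) had 1.96 and 2.25 CPM in BM, 1.74 and 5.47 in LI, 6.59 and 11.6 in the lung, 3.95 and 3.34 in the pancreas, and 3.42 and 1.43 in SI. Both lung libraries lay above the other 8, and lung exceeded BM by 2.11 ± 0.49 (adjusted p = 0.00536, edgeR) and SI by 1.93 ± 0.48 (adjusted p = 0.00794). The differences of lung from LI (1.28 ± 0.47) and the pancreas (1.31 ± 0.48) at this region did not pass (adjusted p = 0.0914 and 0.12). The joint call at −40.4 kb (adjusted p = 0.00664, edgeR) was lost without lung 2. Lung also exceeded SI at −45.1 kb by 1.19 ± 0.28 (adjusted p = 0.00557) and at −42.9 kb by 0.87 ± 0.26 (adjusted p = 0.024). The joint call at −45.1 kb was lost without lung 1 or lung 2 (adjusted p up to 0.105), and that at −42.9 kb without BM 1, BM 2, lung 2, pancreas 1 or pancreas 2 (adjusted p up to 0.193).

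The *Il7r* region with the most counts, at −51.3 kb (chr15:9580463-9581798), and the most distant, at −69.7 kb (chr15:9599324-9599851), lay inside the neighbouring gene *Spef2*, in an intron and an exon, while the TSS of *Il7r* was the nearest to both. At −51.3 kb the libraries had 84.8 and 77.1 CPM in BM, 49.6 and 76.9 in LI, 70.5 and 91.9 in the lung, 67.4 and 69.1 in the pancreas, and 47 and 47.8 in SI. SI was lowest in both libraries, at 1.71-fold below lung (log2 difference 0.78 ± 0.21, adjusted p = 0.0142, edgeR), and the joint call (adjusted p = 0.0339) was lost when levels were scaled by library size alone and without any 1 of BM 1, BM 2, lung 2, pancreas 1, pancreas 2, SI 1 or SI 2 (adjusted p up to 0.0949). At −69.7 kb the values were 1.71 and 1.75 CPM in BM, 8.28 and 5.56 in LI, 3.76 and 7.48 in the lung, 3.42 and 4.21 in the pancreas, and 1.78 and 3.14 in SI, so that LI and lung overlapped and both lay above BM and SI. LI exceeded BM by 1.98 ± 0.42 (adjusted p = 0.00215, edgeR) and lung exceeded BM by 1.70 ± 0.41 (adjusted p = 0.00716).

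The *Il7r* promoter region (chr15:9529512-9530099), centred on the first exon, did not pass the joint test (adjusted p = 0.104, edgeR), with 17.1 and 15.1 CPM in BM, 17.6 and 20.5 in LI, 14.6 and 15.9 in the lung, 18.8 and 19 in the pancreas, and 13.3 and 11.3 in SI. Both SI libraries had the lowest values. The region at −3.7 kb had 39.6 and 37.6 CPM in BM and 19.4 to 40.1 elsewhere (adjusted p = 0.348, edgeR). In intron 1, at +1.5 kb, the pancreas exceeded SI by 0.76 ± 0.19 (adjusted p = 0.00861, edgeR), a 1.70-fold difference. Its joint call (adjusted p = 0.0295) was lost with library size alone and without lung 1, lung 2, pancreas 1 or SI 1 (adjusted p up to 0.306).

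*Crlf2*, which encodes the chain that gives the TSLP receptor its specificity, had 2 regions within 1.4 kb of its TSS and none centred in the promoter window. The larger, over exon 2 at +1.4 kb (chr5:109557135-109558063), had 191 and 172 CPM in BM, 139 and 154 in LI, 149 and 153 in the lung, 167 and 176 in the pancreas, and 129 and 153 in SI. BM overlapped with the pancreas, LI, lung and SI overlapped with each other, and the joint test gave an adjusted p of 0.307 (edgeR). The region at +0.3 kb, in intron 1, had 57.6 to 101 CPM (adjusted p = 0.304).

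**Figure D2:**
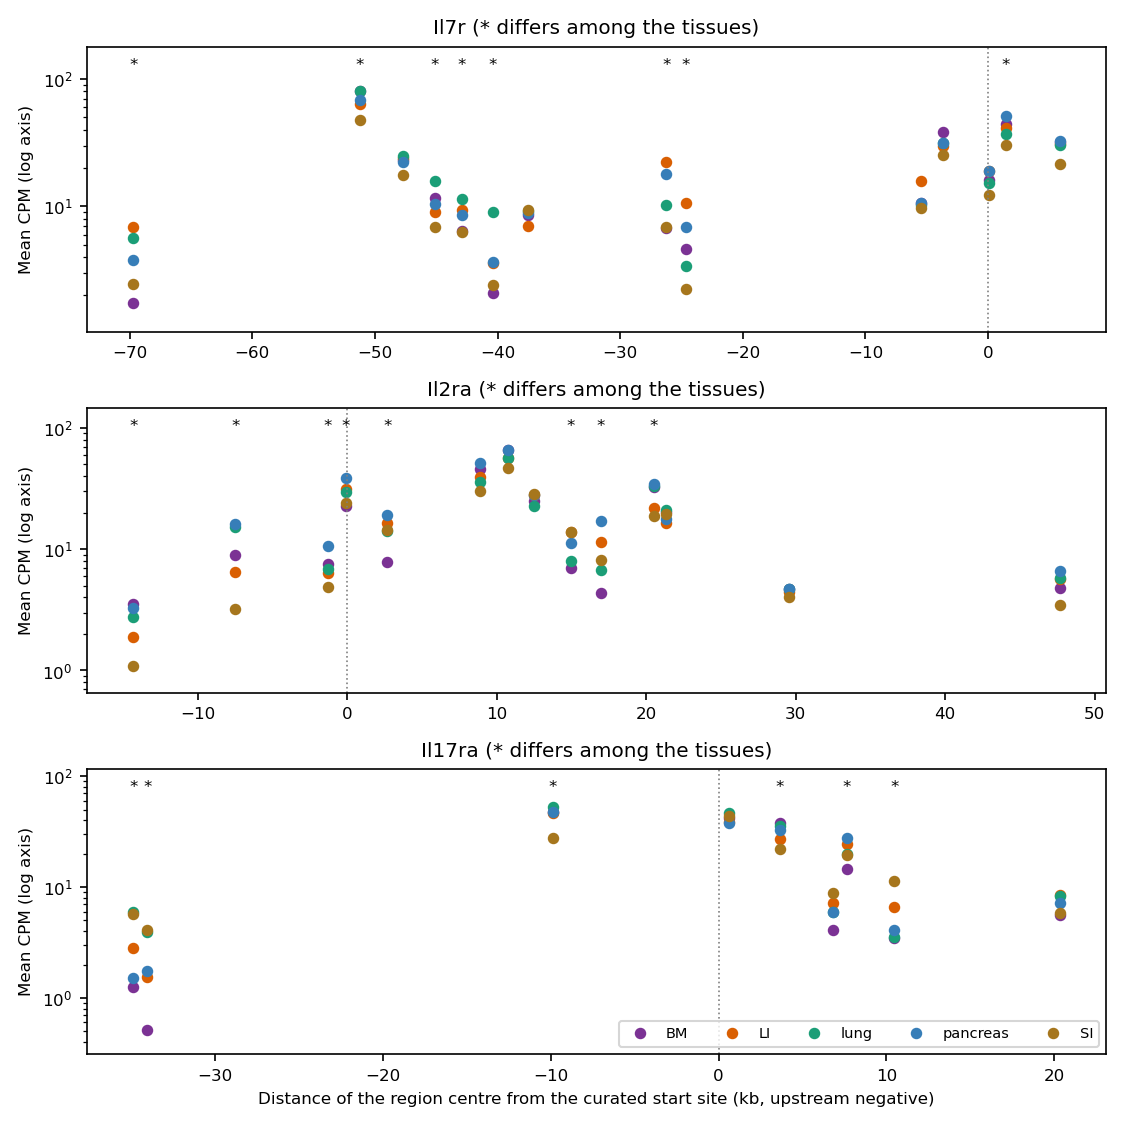
Mean CPM of 2 libraries per tissue (log axis) at each region of *Il7r*, *Il2ra* and *Il17ra* against the distance of its centre from the curated TSS (kb, upstream negative, dotted line at the TSS). Colours are the tissues and * marks regions that differed among them. The widest spreads between tissues lie away from the TSS, at −40.4 and −24.6 kb of *Il7r*, −7.5 kb of *Il2ra* and −34.1 kb of *Il17ra*.

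*Il2ra* encodes the alpha chain that raises the affinity of the IL-2 receptor. Its region at −7.5 kb (chr2:11634965-11635618, intergenic) had the smallest joint p of the 55 (adjusted p = 7.48e-05, edgeR). It had 9.98 and 7.87 CPM in BM, 7.58 and 5.43 in LI, 11.8 and 18.8 in the lung, 15 and 17.3 in the pancreas, and 2.94 and 3.45 in SI. Both SI libraries lay below the other 8, and SI was lower than each other tissue, by 2.32 ± 0.30 against the pancreas (adjusted p = 5.7e-05), 2.26 ± 0.30 against lung (adjusted p = 6.4e-05), 1.48 ± 0.30 against BM (adjusted p = 0.00159) and 1.01 ± 0.30 against LI (adjusted p = 0.0485). The pancreas also exceeded LI, by 1.32 ± 0.29 (adjusted p = 0.0199), and BM, by 0.85 ± 0.28 (adjusted p = 0.0382). The joint call held in each of 18 alternative settings. The separation of SI from all tissues was kept in 9 of 22, and was lost with library size alone, with trends along GC content and region width taken out, in fits on 4 libraries and without any 1 library of BM, LI, pancreas or SI. The SI gate was the only one without CD25, the product of this gene, and whether that bears on the lower value was not tested.

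The second *Il2ra* region that stood apart lay in intron 1 at +2.7 kb (chr2:11645197-11645721) and was lowest in BM. It had 7.78 and 8.05 CPM in BM, 14.1 and 19.1 in LI, 11.4 and 17 in the lung, 19.1 and 19 in the pancreas, and 13.9 and 14.7 in SI. BM lay below the other 8 libraries, by 1.27 ± 0.25 against the pancreas (adjusted p = 0.00213, edgeR), 1.08 ± 0.25 against LI (adjusted p = 0.00441), 0.85 ± 0.25 against lung (adjusted p = 0.0239) and 0.85 ± 0.25 against SI (adjusted p = 0.0186). The joint call (adjusted p = 0.0076) was lost without BM 1 or BM 2, with an adjusted p up to 0.0683. Erythroid markers were highest in BM (14 to 24.7 against 2.19 to 4.77 CPM), and their part in the lower BM values here and at +17.0 kb was not tested.

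Also in intron 1, the region at +17.0 kb (chr2:11659513-11660013) was highest in the pancreas and lowest in BM. It had 4.4 and 4.33 CPM in BM, 8.54 and 14.2 in LI, 5.61 and 7.89 in the lung, 14.2 and 20 in the pancreas, and 7.7 and 8.46 in SI. The pancreas met LI at 14.2 CPM and lay above the rest, by 1.96 ± 0.31 against BM (adjusted p = 0.000292, edgeR), 1.33 ± 0.29 against lung (adjusted p = 0.0151) and 1.07 ± 0.29 against SI (adjusted p = 0.0161). The stronger region of the same intron at +20.5 kb (chr2:11662925-11663631) had 33.1 and 32 CPM in BM, 19.4 and 24.6 in LI, 28.1 and 38.9 in the lung, 36.7 and 32.5 in the pancreas, and 19 and 18.8 in SI. Here BM, lung and pancreas lay above LI and SI, and the pancreas exceeded SI by 0.88 ± 0.21 (adjusted p = 0.00814, edgeR). The differences of LI from BM (0.56 ± 0.21), lung (0.60 ± 0.21) and the pancreas (0.65 ± 0.21) did not pass (adjusted p = 0.0545, 0.0783 and 0.12).

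At the *Il2ra* promoter (chr2:11642369-11642969) the libraries had 22.4 and 23.1 CPM in BM, 28 and 34.7 in LI, 28.3 and 30.6 in the lung, 37.7 and 40.2 in the pancreas, and 24.5 and 23.8 in SI. Both pancreas libraries lay above the other 8, by 0.78 ± 0.19 against BM (adjusted p = 0.00873, edgeR) and 0.69 ± 0.19 against SI (adjusted p = 0.0174). The differences of the pancreas from LI (0.31 ± 0.19) and lung (0.40 ± 0.19) did not pass (adjusted p = 0.513 and 0.244). The joint call (adjusted p = 0.0181) was lost with library size alone, with the trends removed, and without BM 1, pancreas 1 or pancreas 2 (adjusted p up to 0.0915). The 2 strongest regions of the gene, at +8.9 and +10.7 kb in intron 1, had 26.9 to 57.5 and 41.5 to 77.3 CPM and did not pass (adjusted p = 0.117 and 0.298). Of the other regions that passed, that at −14.3 kb was lowest in SI, with 1.06 and 1.11 CPM against 4.26 and 2.85 in BM (log2 difference 1.70 ± 0.45, adjusted p = 0.0101, edgeR), and that at −1.3 kb was 1.12 ± 0.28 higher in the pancreas than in SI (adjusted p = 0.00866). At +14.9 kb LI and SI exceeded BM by 1.02 ± 0.33 and 0.98 ± 0.33 (adjusted p = 0.027 and 0.0366, edgeR). The joint calls of these 3 regions were kept in 12, 8 and 10 of 18 alternative settings, with adjusted p up to 0.0976, 0.13 and 0.343.

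*Il2rb* encodes the beta chain of the IL-2 receptor, which signals together with the gamma chain and also serves IL-15. Its promoter region at −0.1 kb (chr15:78494938-78495479) separated lung and pancreas from BM and SI. It had 21.3 and 31 CPM in BM, 36.5 and 42.9 in LI, 58.7 and 60.9 in the lung, 65.7 and 60.9 in the pancreas, and 20.6 and 31.6 in SI. Lung and pancreas lay above all other libraries, LI lay between, and BM overlapped with SI. No contrast of LI passed, with adjusted p of 0.109 against lung, 0.133 against the pancreas, 0.0539 against BM and 0.113 against SI (edgeR). The pancreas exceeded BM by 1.28 ± 0.23 (adjusted p = 0.000951, edgeR) and SI by 1.28 ± 0.23 (adjusted p = 0.000951), and lung exceeded each by 1.19 ± 0.23 (adjusted p = 0.0014 and 0.00134).

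Other *Il2rb* regions did not follow the promoter. The region at −15.6 kb (chr15:78510269-78510987), in an intron of a longer transcript model, was highest in SI with 13 and 6.41 CPM, and had 2.89 and 3.64 in BM, 6.45 and 8.99 in LI, 4.63 and 4.44 in the lung, and 2.83 and 4.31 in the pancreas. SI and LI overlapped and SI exceeded BM by 1.56 ± 0.36 (adjusted p = 0.00409, edgeR), a difference of 1.41 without BM 1 (adjusted p = 0.0544) and 0.95 without SI 1 (adjusted p = 0.0735). At +14.8 kb, past the curated 3′ end, BM had 2.3 and 2.53 CPM against 4.28 to 9.74 CPM in the other libraries, and lung exceeded it by 1.58 ± 0.40 (adjusted p = 0.01, edgeR). That contrast missed the threshold without BM 1, BM 2 or lung 2 (adjusted p up to 0.227). The part of the erythroid markers (14 to 24.7 CPM in BM against 2.19 to 4.77 elsewhere) in the lower BM values of *Il2rb* was not tested. The region at +1.3 kb, at the TSS of other transcripts of the gene, had 46.6 and 58.1 CPM in BM, 63 and 83.9 in LI, 89.3 and 88.9 in the lung, 89.5 and 84.7 in the pancreas, and 54.4 and 95.5 in SI (joint adjusted p = 0.0792).

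*Il4ra* encodes the ligand-binding chain of the IL-4 receptor, which is also part of an IL-13 receptor. Its promoter region (chr7:125552002-125552544) had 33.7 to 52.3 CPM over the 10 libraries and did not pass (adjusted p = 0.517, edgeR). In intron 1, at +2.4 kb (chr7:125554366-125554904), the libraries had 6.51 and 11.8 CPM in BM, 9.41 and 13.6 in LI, 10.1 and 13.2 in the lung, 22.3 and 23 in the pancreas, and 7.99 and 6.41 in SI. Both pancreas libraries lay above the other 8, among which SI lay below LI and lung and overlapped with BM. The pancreas exceeded SI by 1.65 ± 0.30 (adjusted p = 0.000964, edgeR) and BM by 1.30 ± 0.29 (adjusted p = 0.00499). Its differences from LI (0.97 ± 0.29) and lung (0.96 ± 0.29) did not pass (adjusted p = 0.0871 and 0.0618). The region over the coding part of exon 11, at +23.7 kb (chr7:125575697-125576197), had 6.07 and 8.74 CPM in BM, 2.88 and 4.61 in LI, 3.96 and 4.28 in the lung, 5.24 and 6.36 in the pancreas, and 1.83 and 2.3 in SI. SI lay below the other 8 libraries. BM exceeded it by 1.83 ± 0.34 (adjusted p = 0.000949, edgeR), the pancreas by 1.47 ± 0.35 (adjusted p = 0.00679) and lung by 0.99 ± 0.34 (adjusted p = 0.0478). The difference of LI from SI (0.87 ± 0.35) did not pass (adjusted p = 0.134).

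*Il9r*, the gene of the IL-9 receptor chain, passed at 1 of 4 regions. That region (chr11:32205078-32205619) covers the TSS of a longer *Il9r* model 5.1 kb upstream of the curated one and also the promoter of the neighbouring gene *Snrnp25*. It had 70.6 and 82.9 CPM in BM, 50.6 and 55.6 in LI, 59.2 and 53.8 in the lung, 51.3 and 45.1 in the pancreas, and 57.7 and 60.2 in SI. BM lay above the other 8 libraries, by 0.67 ± 0.18 against the pancreas (adjusted p = 0.0133, edgeR) and 0.53 ± 0.18 against LI (adjusted p = 0.0327). The differences of BM from lung (0.44 ± 0.18) and SI (0.38 ± 0.18) did not pass (adjusted p = 0.093 and 0.127). The joint call (adjusted p = 0.0401) was kept in 6 of 18 alternative settings, with an adjusted p up to 0.269, and the settings that lost it included library size alone, the removal of trends and the absence of any 1 library of BM, LI, lung or pancreas. The erythroid markers were also highest in BM (14 to 24.7 against 2.19 to 4.77 CPM), and their part in the BM value was not tested. At the curated promoter (−0.1 kb) the pancreas exceeded SI by 0.72 ± 0.20 (adjusted p = 0.02, edgeR), with 73.3 and 63.3 against 32.6 and 50.5 CPM, while the joint test missed the threshold (adjusted p = 0.0841).

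*Il17rb* encodes the chain that binds IL-25, and both of its regions had their highest values in the intestine. The region at +9.6 kb (chr14:29999037-29999541) covers coding exon 9 and that at +11.3 kb (chr14:29997284-29997828) lies in intron 10, and no region of the table was centred at its curated promoter. At +9.6 kb the libraries had 1.42 and 1.56 CPM in BM, 5.58 and 5.08 in LI, 1.72 and 1.77 in the lung, 2 and 3.02 in the pancreas, and 5.25 and 7.56 in SI. All 4 intestinal libraries lay above the other 6. SI exceeded BM by 2.10 ± 0.37 (adjusted p = 0.000657, edgeR), lung by 1.87 ± 0.36 (adjusted p = 0.00141) and the pancreas by 1.38 ± 0.37 (adjusted p = 0.0146). LI exceeded BM by 1.83 ± 0.38 (adjusted p = 0.0019, edgeR) and lung by 1.60 ± 0.36 (adjusted p = 0.00907). At +11.3 kb the values were 6.8 and 6.49 CPM in BM, 8.89 and 10.6 in LI, 6.23 and 5.05 in the lung, 3.42 and 4.21 in the pancreas, and 8.52 and 12.2 in SI, so that the intestinal libraries again lay above the other 6. SI exceeded the pancreas by 1.46 ± 0.30 (adjusted p = 0.00225, edgeR) and lung by 0.88 ± 0.27 (adjusted p = 0.0295), and LI exceeded the pancreas by 1.38 ± 0.30 (adjusted p = 0.0176). Not every contrast of an intestinal tissue passed. At +9.6 kb the difference of LI from the pancreas (1.11 ± 0.38) had an adjusted p of 0.133, and at +11.3 kb those of LI from BM (0.56 ± 0.28), SI from BM (0.65 ± 0.28) and LI from lung (0.80 ± 0.28) had adjusted p of 0.138, 0.096 and 0.0762 (edgeR). LI against SI did not pass at either region. Both joint calls held in each of the 18 alternatives, with adjusted p up to 0.00285 and 0.0268.

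**Figure D3:**
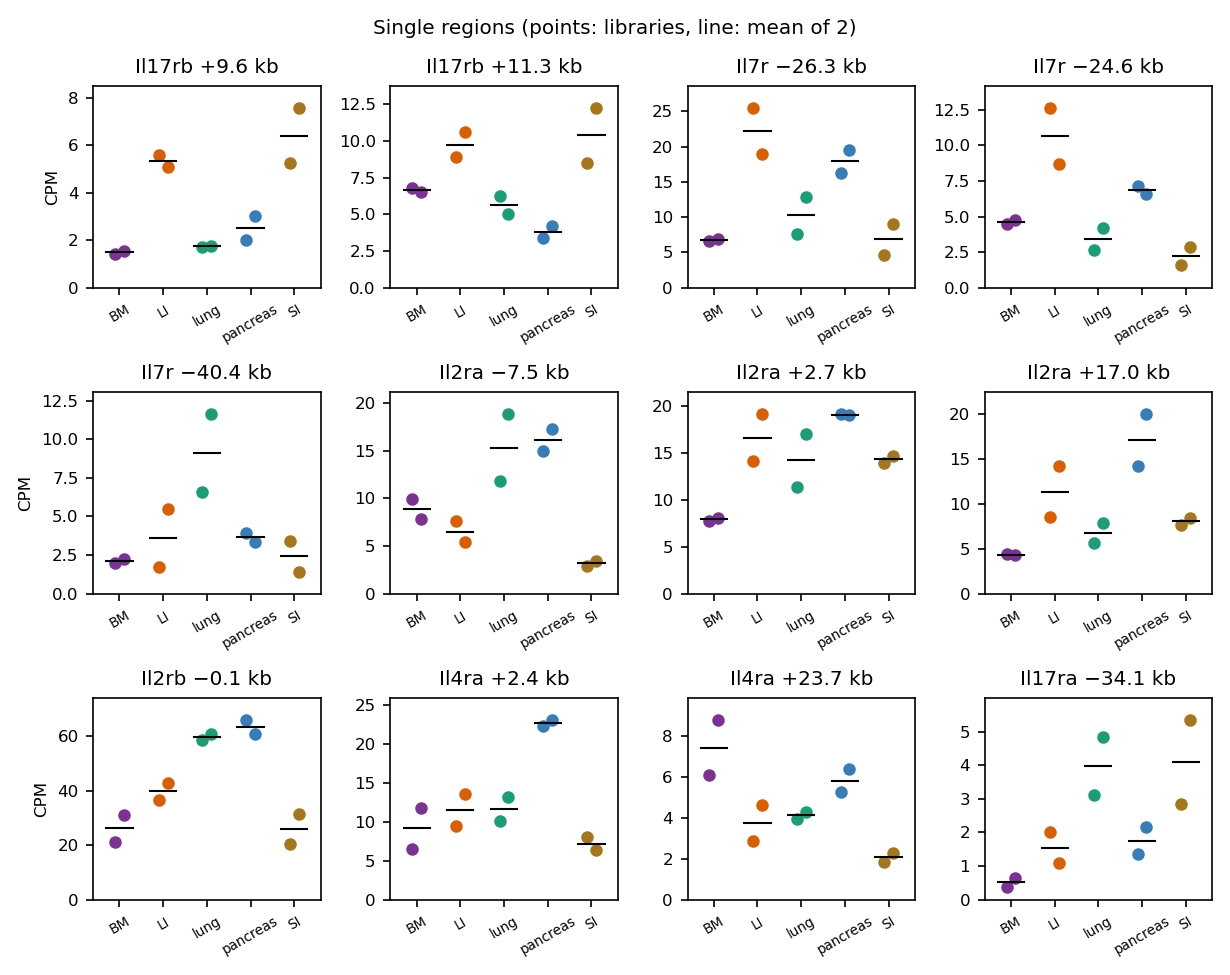
CPM of each library at 12 regions of 6 receptor genes, labelled by the distance from the curated TSS. Points are the 2 libraries of a tissue and the line is their mean. The intestinal points lie above the others at both *Il17rb* regions, the SI points lie lowest at *Il2ra* −7.5 kb and *Il4ra* +23.7 kb, and the pancreas points lie highest at *Il4ra* +2.4 kb.

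*Il17ra*, whose product is shared by the receptors for IL-25 and IL-17A, passed at 6 of 9 regions but not at +0.6 kb, a wide region that begins just past the TSS (33.3 to 49.5 CPM, adjusted p = 0.661, edgeR). The widest difference of the 55 regions lay at −34.1 kb (chr6:120428885-120429399), where the libraries had 0.391 and 0.644 CPM in BM, 2 and 1.09 in LI, 3.1 and 4.83 in the lung, 1.35 and 2.16 in the pancreas, and 2.84 and 5.33 in SI. BM lay below the other 8, by 2.97 ± 0.54 against SI (adjusted p = 0.000775, edgeR), 2.92 ± 0.54 against lung (adjusted p = 0.00102) and 1.71 ± 0.57 against the pancreas (adjusted p = 0.0392). The difference of BM from LI (1.51 ± 0.57) did not pass (adjusted p = 0.053), and the region held only 579 counts over the 10 libraries. The part of the erythroid markers (14 to 24.7 CPM in BM against 2.19 to 4.77 elsewhere) in the lower BM values was not tested. The adjacent region at −34.9 kb (chr6:120428049-120428549) had 0.979 and 1.52 CPM in BM, 3.4 and 2.26 in LI, 4.04 and 7.95 in the lung, 1.41 and 1.62 in the pancreas, and 3.32 and 8.22 in SI, and lung exceeded BM by 2.26 ± 0.48 (adjusted p = 0.00326), or by 1.98 without BM 1 (adjusted p = 0.0612) and 1.70 without lung 2 (adjusted p = 0.0667). Both lie inside *Kdm5a*, in an intron and an exon, with the TSS of *Il17ra* as the nearest.

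At −9.9 kb (chr6:120453042-120453566, intergenic) *Il17ra* was lowest in SI, with 44.5 and 51.2 CPM in BM, 45.2 and 47.3 in LI, 50.2 and 54.5 in the lung, 50.9 and 45.1 in the pancreas, and 20.5 and 34.7 in SI. SI lay below the other 8 libraries and was lower than each tissue, by 0.92 ± 0.22 against lung (adjusted p = 0.00672, edgeR), 0.80 ± 0.22 against the pancreas (adjusted p = 0.0185), 0.79 ± 0.22 against BM (adjusted p = 0.015) and 0.74 ± 0.22 against LI (adjusted p = 0.0486). The joint call (adjusted p = 0.0217) was lost with library size alone and without lung 2 or SI 1 (adjusted p up to 0.169). In intron 3, at +10.5 kb, SI had 17.8 and 4.74 CPM against 3.04 to 7.24 CPM elsewhere, so the difference from BM of 1.67 ± 0.45 (adjusted p = 0.0113, edgeR) rested on SI 1 and was 0.42 without it (adjusted p = 0.49). Inside intron 1, SI was again lowest at +3.7 kb, with 20.8 and 23 CPM against 27.3 to 41.1 elsewhere (joint adjusted p = 0.0182, 0.0536 without lung 2), and BM was lowest at +7.7 kb, with 16 and 13.3 CPM against 16.4 to 30.4 (joint adjusted p = 0.0281, kept in 11 of 18 alternatives and up to 0.213).

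In all, 3 of the 55 regions set 1 tissue apart from all others in the same direction, at an adjusted p under 0.05 in all 4 contrasts (edgeR), beside 9.48% of all regions tested. These were *Il2ra* −7.5 kb and *Il17ra* −9.9 kb, lower in SI, and *Il2ra* +2.7 kb, lower in BM. The call was kept in 9 of 22 alternatives at the first, 8 at the second and 15 at the third. Library size alone gave 2 regions, *Il2ra* +2.7 kb and *Il17ra* −34.1 kb, and removal of trends gave 2, *Il2ra* +2.7 kb and *Il17ra* −9.9 kb. Fits on the 4 libraries of each pair, with edgeR or DESeq2, gave 2 others, *Il7r* −40.4 kb, higher in lung, and *Il4ra* +2.4 kb, higher in the pancreas. With an unadjusted p the number was 12 (edgeR), with DESeq2 on 10 libraries 5, without BM 1 or BM 2 0, without LI 1, LI 2, lung 2, pancreas 1 or pancreas 2 1 each, and without SI 1 and SI 2 5 and 6.

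When the counts of all regions of a gene were summed, 3 of the 9 genes differed among the tissues (edgeR), beside 37.9% of the 23528 genes with a region. Summed levels have their own CPM scale, because a region can count for more than 1 gene. *Il17rb* (adjusted p = 0.000904) had 6.52 and 6.52 CPM in BM, 12.5 and 13.9 in LI, 6.88 and 5.95 in the lung, 4.76 and 6.39 in the pancreas, and 11.7 and 16.5 in SI. LI and SI overlapped and lay above the other 3 tissues, of which lung overlapped with BM and with the pancreas while BM lay above the pancreas, and the order of the means was SI, LI, BM, lung and pancreas. *Il2rb* (adjusted p = 0.00338) had 58.9 and 78 CPM in BM, 96.5 and 127 in LI, 138 and 144 in the lung, 146 and 140 in the pancreas, and 80.8 and 121 in SI. BM lay below the other 8 libraries, by 1.06 ± 0.20 against the pancreas (adjusted p = 0.00155), 1.04 ± 0.20 against lung (adjusted p = 0.00181) and 0.71 ± 0.20 against LI (adjusted p = 0.015). The difference of BM from SI (0.56 ± 0.20) did not pass (adjusted p = 0.0556), and no pair among pancreas, lung, LI and SI, in that order of their means, passed the threshold. *Il7r* (adjusted p = 0.0284) had 235 and 225 CPM in BM, 223 and 290 in LI, 235 and 278 in the lung, 263 and 258 in the pancreas, and 161 and 177 in SI. SI lay below the other 8 libraries, and the pancreas, LI and lung exceeded SI (adjusted p = 0.0146, 0.0304 and 0.0174, edgeR). BM lay below the pancreas, but its differences from SI (0.44 ± 0.16) and the pancreas (0.18 ± 0.16) did not pass (adjusted p = 0.0658 and 0.455). The joint call of *Il7r* was lost with library size alone (adjusted p = 0.172) and without BM 1, lung 2, pancreas 1, pancreas 2, SI 1 or SI 2. The calls of *Il17rb* and *Il2rb* held in each of 17 alternatives, with adjusted p up to 0.00467 and 0.0481.

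The other summed levels did not pass the joint test. *Il2ra* had 194 and 224 CPM in BM, 182 and 274 in LI, 206 and 252 in the lung, 296 and 278 in the pancreas, and 183 and 189 in SI (adjusted p = 0.0982, edgeR). *Il4ra* had 60.3 and 84 CPM in BM, 52.9 and 74.5 in LI, 67.8 and 71.5 in the lung, 85.4 and 86.6 in the pancreas, and 57.1 and 57.4 in SI (adjusted p = 0.11). Both genes had their highest libraries in the pancreas. *Il17ra* (122 to 170 CPM, adjusted p = 0.197), *Crlf2* (158 to 240, adjusted p = 0.249), *Il9r* (100 to 144, adjusted p = 0.485) and *Il2rg* (27.1 to 37.7, adjusted p = 0.586) were spread less, with the highest mean 1.22-fold to 1.32-fold the lowest. On the scale of the summed levels, the mean of the pancreas or lung was the highest in 8 of the 9 genes, all but *Il17rb*. In 7 that of SI was the lowest, *Il2rb* and *Il17rb* being the exceptions. Most of these genes did not pass the joint test, and the share of all genes with such an order was not computed. The order also depends on the scale. The single *Il2rg* region had means of 40 CPM in BM and 39.9 in the pancreas on the region scale, against 32.1 and 35.2 as a summed level. With library size alone, the differences between pancreas and SI shrank to 0.00 at *Il9r* and turned to −0.05 at *Il17ra*.

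**Figure D4:**
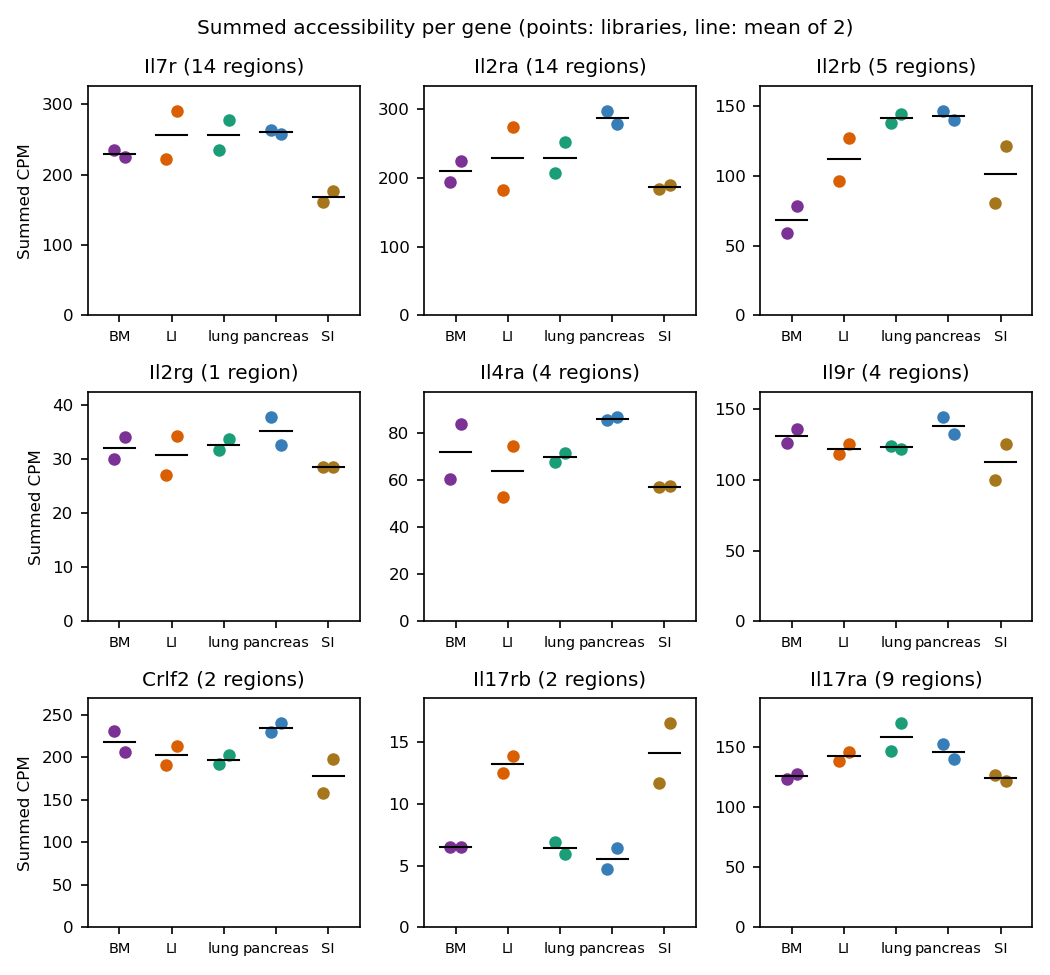
Summed CPM of the regions of each receptor gene by tissue, with the 2 libraries as points and their mean as a line, on axes that start at 0. *Il17rb* is higher in LI and SI, *Il2rb* is lowest in BM and *Il7r* is lowest in SI, while the highest mean is 1.22-fold to 1.32-fold the lowest for *Il9r*, *Il2rg* and *Crlf2*.

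In single pairs of tissues, 5 of the 9 summed levels passed in at least 1 pair, beside 49.9% of all genes. Between pancreas and SI, *Il7r* (0.62 ± 0.16, adjusted p = 0.0146, edgeR), *Il2ra* (0.62 ± 0.19, adjusted p = 0.0303) and *Il4ra* (0.59 ± 0.18, adjusted p = 0.0351) were higher in the pancreas, beside 11.4% of all genes, and *Il17rb* (1.36 ± 0.27, adjusted p = 0.00245) was higher in SI, beside 6.38%. With library size alone, which moved the median of all regions by up to 0.25, the same differences were 0.33, 0.33 and 0.30 with adjusted p of 0.2, 0.239 and 0.266, and *Il17rb* stayed called (adjusted p = 0.000337).

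The tissue pairs divided the 55 regions unequally. Pancreas and SI differed at 21 regions, with 16 higher in the pancreas and 5 in SI (edgeR, adjusted p under 0.05), beside 12% and 8.45% of all regions, and a median log2 difference of 0.41 for the 55 against −0.06 for all. With library size alone the split was 8 and 6, at medians of 0.17 and −0.30. Between lung and SI, 12 regions were higher in lung and 4 in SI, beside 9.86% and 11.1%. Between LI and SI, 5 were higher in LI and 0 in SI, beside 6.9% and 1.53%, and both library size alone and the removal of trends gave 3 and 1. An unadjusted p under 0.05 (edgeR) called 16 regions between LI and SI in all. BM and SI gave 10 regions each way, beside 10.7% and 15.1%, with a split of 3 and 13 with library size alone and 14 and 8 with trends removed.

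Against the other tissues, BM had fewer regions that were higher. Between BM and LI, 2 regions were higher in BM and 9 in LI, beside 12.6% and 18.3%, and with trends removed 4 and 9. Between BM and lung, 0 were higher in BM and 9 in the lung, beside 7.56% and 11.5%, and an unadjusted p under 0.05 (edgeR) called 14 in all. Between BM and pancreas, 1 was higher in BM and 11 in the pancreas, beside 9.89% and 14.3%. The remaining pairs gave few calls. LI and lung gave 3 higher in LI and 1 in the lung, beside 8.18% and 2.72%, and the split turned to 2 and 7 with library size alone and to 2 and 6 with trends removed. LI and pancreas gave 1 each way, beside 2.01% and 1.25%, and lung and pancreas also 1 each way, beside 1.62% and 4.2%. These pairs share libraries, so their counts are not independent of each other.

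**Figure D5:**
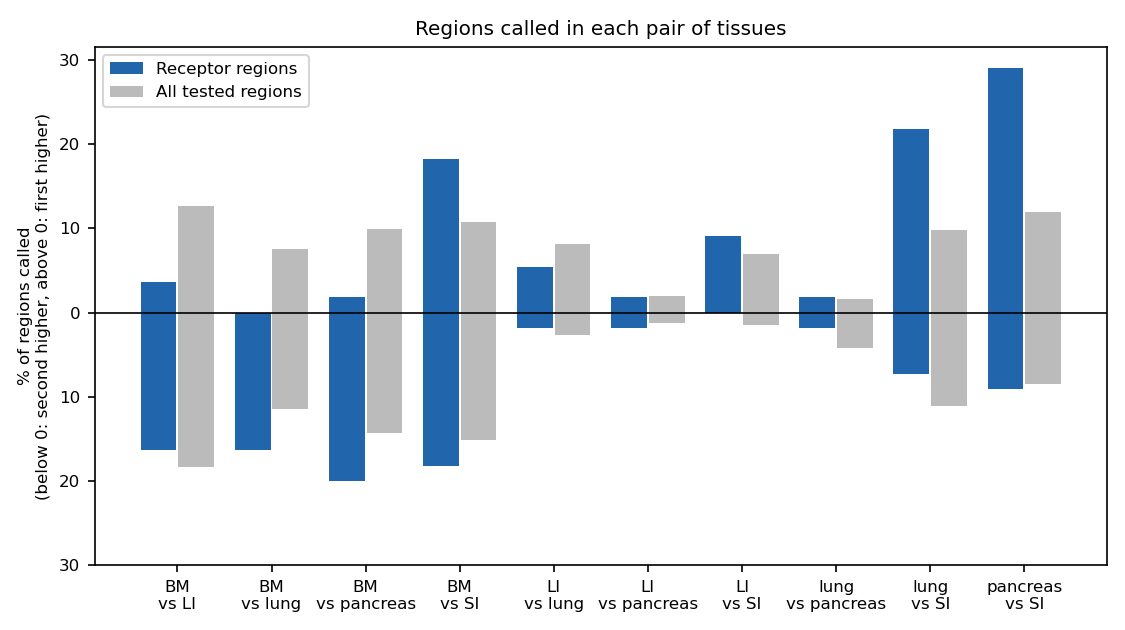
Percent of the 55 receptor regions (blue) and of all tested regions (grey) called in each pair of tissues, with regions higher in the first tissue above 0 and in the second below. The blue bar for regions higher in the pancreas than in SI stands for 16 of 55 and the grey one beside it for 12%.

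Genes of the same pathways were followed in a list of 25, with kinases, STAT factors, other receptor chains, IL-17 receptor adaptors and target genes. *Il13ra1* had no region, and the other 24 had 148, of which 74 (50%) passed the joint test (edgeR), near the 44.2% of all regions. Among the 74, the highest mean of log2 CPM was in the pancreas at 22, in SI at 21, in BM at 17, in lung at 9 and in LI at 5. Between pancreas and SI, 31 of the 148 were higher in the pancreas and 18 in SI, beside 12% and 8.45% of all regions. Of the 24 summed levels, 9 (37.5%) passed, near the 37.9% of all genes, namely *Jak1*, *Jak3*, *Stat5a*, *Stat5b*, *Il6ra*, *Il17rd*, *Cish*, *Socs2* and *Bcl2*. *Cish*, a STAT5 target that restrains cytokine signalling, had 147 and 138 CPM in BM, 185 and 198 in LI, 214 and 246 in the lung, 278 and 236 in the pancreas, and 143 and 156 in SI (adjusted p = 0.00102, edgeR), and lung and pancreas lay above the rest. *Stat5b*, which transmits IL-2 and IL-7 signals, had 39.8 and 43.9 CPM in the pancreas and 69.7 and 109 in SI (adjusted p = 0.00236), so that its order was not that of *Cish*. *Bcl2*, a survival gene, had 107 and 123 CPM in BM against 141 to 188 elsewhere (adjusted p = 0.00665). *Il6ra*, the IL-6 receptor chain, had 192 and 221 CPM in BM and 49.8 and 39.6 in SI (adjusted p = 1.51e-06), the smallest p of the list.

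For the genes whose summed level differed, the 3 genes with the most similar log2 CPM over the 10 libraries, among those with at least 3 regions and none shared, are given as a description. For *Il17rb* these were *Gm41069*, *Nln* and *Atp8a2*, with Pearson correlations of 0.972, 0.97 and 0.968. For *Il2rb* they were *Gm5148*, *Gm38559* and *Mettl24* (0.986, 0.979 and 0.975), and for *Il7r* they were *Gm46827*, *Polr2d-ps1* and *A330093E20Rik* (0.964, 0.942 and 0.941). The points of each correlation share the 10 libraries and the search ran over 7403 to 7405 genes.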

How the data were processed

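ATAC-seq counts of 10 libraries, 2 from ILC2s of each of 5 tissues, were analysed. The authors mapped quality-filtered reads to mm10 with Bowtie2 2.2.9, kept uniquely mapped reads, called peaks with MACS2 2.1.1, kept peaks present in both replicates, merged the peaks of the tissues and deposited raw counts per merged region. Removal of duplicate reads and a transposase shift are not given in the sources used here. Coordinates are printed as the deposited table gives them, and whether they count from 0 or 1 is not stated. Regions were annotated with RefSeq transcripts of GRCm38, with a promoter from 1000 bp upstream to 100 bp downstream of any TSS, and distances run to the TSS of the curated transcript. Assignment by position is no evidence of which gene a region regulates.

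All 49981 regions that held a count entered edgeR 4.0.16 tests (TMM, glmQLFit and glmQLFTest, tissue as the only factor, 10 libraries in 1 fit), jointly over the 5 tissues and for 10 pairs, with Benjamini-Hochberg adjustment over all regions. SE is the absolute log2 fold change divided by the square root of F. Counts summed per gene were tested likewise. The fit was tested on simulated counts with known changes. Alternatives were library size alone or DESeq2 size factors in place of TMM, trends in GC content and width removed, a filter at 10 counts, DESeq2 1.42.0, fits on 4 libraries, a replicate block, an unadjusted p, a log2 fold change above 1, the nearest TSS alone and each library left out. The removal of both LI 1 and pancreas 2 was added after seeing the data.

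The 9 genes, the pathway and marker lists (ILC2, T cell, B cell, myeloid, mast cell and basophil, ILC3, ILC1 and NK, progenitor, epithelial, endothelial and stromal, erythroid) and the motifs were chosen with earlier results of these data known. Regions given with values in each library were the promoter region with the most counts of each gene, up to 3 others with the smallest joint p among those that passed, and regions apart from all other tissues. Others given with values were chosen after their values were seen. Sequences were read from GRCm38.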

Additional observations from a re-analysis of the deposited data

How the results depend on the processing

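With 2 libraries per tissue, single libraries carried many of the counts of regions that passed. Each of the 24 named regions was followed only in the pair of tissues with its smallest p in the main fit (edgeR). No log2 fold change of these regions turned in direction under any alternative. As the pairs were picked from the same data, a turn was unlikely beforehand, and its absence says nothing of the other pairs. Of the values of these regions under the alternatives, 453 kept their side of the threshold, 26 fell short of it and 1 passed it anew. Leaving out 1 library at a time moved the joint count over the 5 tissues from 30 to 20 to 31, the regions apart from all other tissues from 3 to 0 to 6 and the genes with differing summed counts from 3 to 2 to 5. In the same fits the pairs ranged from 5 to 21 regions (BM and LI), 2 to 10 (BM and lung), 4 to 15 (BM and pancreas), 6 to 21 (BM and SI), 1 to 9 (LI and lung), 0 to 5 (LI and pancreas), 2 to 7 (LI and SI), 0 to 4 (lung and pancreas), 4 to 17 (lung and SI) and 9 to 21 (pancreas and SI). The lone library of a tissue is assumed there to vary like the others, and these fits have fewer samples. Without both LI 1 and pancreas 2, the counts were 7 for BM and LI, 4 for BM and pancreas, 2 for LI and lung, 0 for LI and pancreas, 1 for LI and SI, 0 for lung and pancreas, 12 for pancreas and SI and 1 for regions apart (edgeR, with the unadjusted counts given next).

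An unadjusted p gave 21 regions for BM and LI, 14 for BM and lung, 32 for BM and SI, 15 for LI and lung, 10 for LI and pancreas, 16 for LI and SI, 9 for lung and pancreas and 12 apart. A log2 fold change above 1 left 7 for BM and pancreas, 11 for BM and SI, 9 for lung and SI and 1 apart. DESeq2 on 10 libraries gave 5 apart. DESeq2 on the 4 libraries of a comparison gave 8 for LI and lung, 4 for LI and pancreas, 3 for LI and SI and 4 for lung and pancreas, and edgeR on 4 libraries gave 10 for LI and lung, 2 for LI and SI, 6 for lung and pancreas and 10 for lung and SI. LI and lung gave 9 with library size alone and 8 with GC and width trends taken out. The fits on 4 libraries have fewer samples, and the cause of the differing counts was not tested for any of these settings. The replicate block left the joint count at 30 and gave 4 regions apart, 13 for BM and LI and 3 for lung and pancreas, but under it *Il9r* −5.1 kb fell short (adjusted p = 0.0593) and *Il2rb* +1.3 kb passed (adjusted p = 0.0448, edgeR). Correlations of replicate differences between tissues ran from −0.218 to 0.196, above 0.1 in 4 of 10 pairs of tissues and below 0 in 5, and the labels give the numbers no shared day or animal, so the replicate numbers were not taken to pair the samples. Pancreas 2, with 10282987 counts, limits the precision of the low regions. The counts are of PCR products without molecular identifiers. The SE and p of the edgeR fits rest on the spread between the libraries of a tissue as well as on counting error.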
